A study of Drosophila melanogaster with 9 samples.

Results

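The pericentric ends of chromosome arms 2L and 3L of *Drosophila melanogaster*, the centromere-proximal parts of the assembled arm sequences, were described in 500-bp tiles. Heterochromatin sequences assembled apart from the arms were not included. The end of 2L ran from chr2L:22000001-23012000 (dm3) and held 2024 tiles over 1.01 Mb, and the end of 3L ran from chr3L:22900001-24538500 and held 3277 tiles over 1.64 Mb. The tiles were chosen by position alone, from a fixed start to the last tile with a read in any library, at 23011511 on 2L and 24538423 on 3L. Together the ends made up 5301 of the 240738 tiles of the 6 assembled arms, and they were compared with the other 89800 tiles of 2L and 3L. Chromatin immunoprecipitation followed by sequencing (ChIP-seq) had been done for 3 histone marks and for RNA polymerase II (Pol II) in *bam* testis and in S2 cells, and RNA-seq in S2 cells is also analysed here. The *bam* testes were mutant for *bag of marbles* (*bam*). Mutations in this gene inhibit the transition from spermatogonia to differentiating spermatocytes. The fly stocks carried the alleles bam1 (over TM3) and bam114-97 (over TM6B), and the mutant testes carried both alleles in place of the balancers. About 200 pairs were pooled for each ChIP, and the testes hold mainly undifferentiated germ cells together with somatic cells. S2 cells are a cultured *Drosophila* line from ATCC that grew without treatment. There was 1 library for each target and sample, 9 in all, so no difference between the samples could be tested, and the identity of the samples was not checked against marker genes since gene positions in dm3 were not at hand.

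Pericentric heterochromatin is the compact, repeat-rich chromatin around the centromere, known in flies for methylation of histone H3 at lysine 9 and for silencing genes that are moved next to it. It also holds resident genes, among them *light* on 2L, that are transcribed in this setting and can lose activity when moved out of it. H3K4me3 marks the starts of active genes, H3K36me3 is laid down over the bodies of transcribed genes as Pol II elongates, and H3K27me3 is the mark of Polycomb repression. Lysine 9 methylation was not among the targets, and genes are not named below, because positions could not be matched to an annotation of the same build.

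The libraries held between 1250028 and 3729366 ChIP-seq reads and 7289715 RNA-seq reads, of which the ends received between 11317 and 56312 ChIP-seq reads and 39377 RNA-seq reads. Densities are given as reads per kb for each 1000000 reads of the library (RPM per kb), and intervals are 95% intervals that cover counting error only. Because the authors retained uniquely mapped reads, sequence that is repeated alike at read length cannot receive reads, while repeats that differ can. No ChIP-seq read of any of the 8 libraries fell in 641 tiles of the ends (12.1%, 11.2 to 13.0), against 3.51% (3.39 to 3.63) of the other tiles of both arms. The share was 10.4% in the 2L end and 13.2% in the 3L end. Reads without a mismatch were more frequent in the ends in all 8 ChIP-seq libraries, for example 62.3% of the reads in the ends and 56.5% in the rest of the arms for H3K4me3 of *bam* testis. No input or H3 library was analysed here, so the number of DNA copies and the density of a mark cannot be told apart. Since *bam* testis is a mixture, fewer cells of a type and less mark or RNA per cell cannot be told apart either.

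The ends carried fewer reads than the rest of the arms in all 9 libraries, but by very different amounts, and the order of the targets differed between the samples. These ratios include background reads, whose share differed between libraries. In the rest, tiles at 14 RPM per kb or more held 35.3% of the H3K4me3 reads of *bam* testis and 82.8% of those of S2 cells. How far background shaped the order was not tested. In *bam* testis, H3K36me3 was the least reduced, with a mean density of 6.43 RPM per kb in the ends and 7.91 in the rest, a ratio of 0.813 (0.804 to 0.823). H3K4me3 followed with 6.53 in the ends and 8.56 in the rest, a ratio of 0.763 (0.753 to 0.772). Pol II had 4.89 in the ends and 8.36 in the rest (0.585, 0.576 to 0.594), and H3K27me3 had 4.84 in the ends and 8.42 in the rest (0.575, 0.569 to 0.580). The intervals of these last 2 ratios overlap. H3K36me3 was also least reduced in S2 cells, with 7.05 in the ends and 8.15 in the rest (0.865, 0.857 to 0.872). There, however, H3K27me3 came second, with 5.88 in the ends and 8.54 in the rest (0.688, 0.681 to 0.695), ahead of Pol II with 4.37 in the ends and 8.38 in the rest (0.521, 0.514 to 0.528). H3K4me3 was the most reduced ChIP target of S2 cells, with 3.42 in the ends and 8.48 in the rest (0.403, 0.396 to 0.411). RNA-seq reads had 2.04 in the ends and 8.17 in the rest (0.249, 0.247 to 0.252). This ratio depended on the limit of 3 identical reads, since it was 0.511 (0.508 to 0.514), above that of H3K4me3 of S2 cells, when all copies were kept. Among tiles that held ChIP-seq reads, the 8 ChIP ratios were between 0.442 and 0.949 and the targets kept their order within each sample. With reads without a mismatch only, H3K36me3 of *bam* testis was no longer reduced, at 1.01 (0.982 to 1.04).

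The 3L end was the more depleted, most of all in S2 cells. H3K4me3 of S2 cells had a ratio of 0.752 (0.736 to 0.769) in the 2L end and 0.191 (0.185 to 0.198) in the 3L end. In *bam* testis the same mark was at 0.895 (0.878 to 0.913) in the 2L end and 0.681 (0.669 to 0.693) in the 3L end. H3K36me3 of S2 cells was above the rest of the arm in the 2L end, at 1.26 (1.25 to 1.28), and below it in the 3L end, at 0.618 (0.610 to 0.626). The segment of the same length next to the 2L end was higher still, with 10.3 RPM per kb in the end and 12.5 in that segment. In *bam* testis H3K36me3 was at 0.952 (0.935 to 0.969) in the 2L end and 0.725 (0.714 to 0.737) in the 3L end. Among tiles with ChIP-seq reads, the 2L value of *bam* testis was 1.02. Of the 4 targets H3K27me3 differed least between the ends in both samples, at 0.610 (2L) and 0.554 (3L) in *bam* testis and 0.774 (2L) and 0.640 (3L) in S2 cells. Pol II was at 0.686 (2L) and 0.522 (3L) in *bam* testis and at 0.732 (2L) and 0.392 (3L) in S2 cells. RNA-seq reads were at 0.459 (0.454 to 0.465) in the 2L end and 0.124 (0.122 to 0.126) in the 3L end with at most 3 identical reads, but with all copies they were at 1.06 (1.05 to 1.06) in the 2L end and 0.177 (0.175 to 0.179) in the 3L end, so that the 2L end was no longer below the rest of its arm. All 9 libraries therefore had the higher ratio in the 2L end, and the intervals of the ends did not overlap in any of them.

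**Figure D1:**
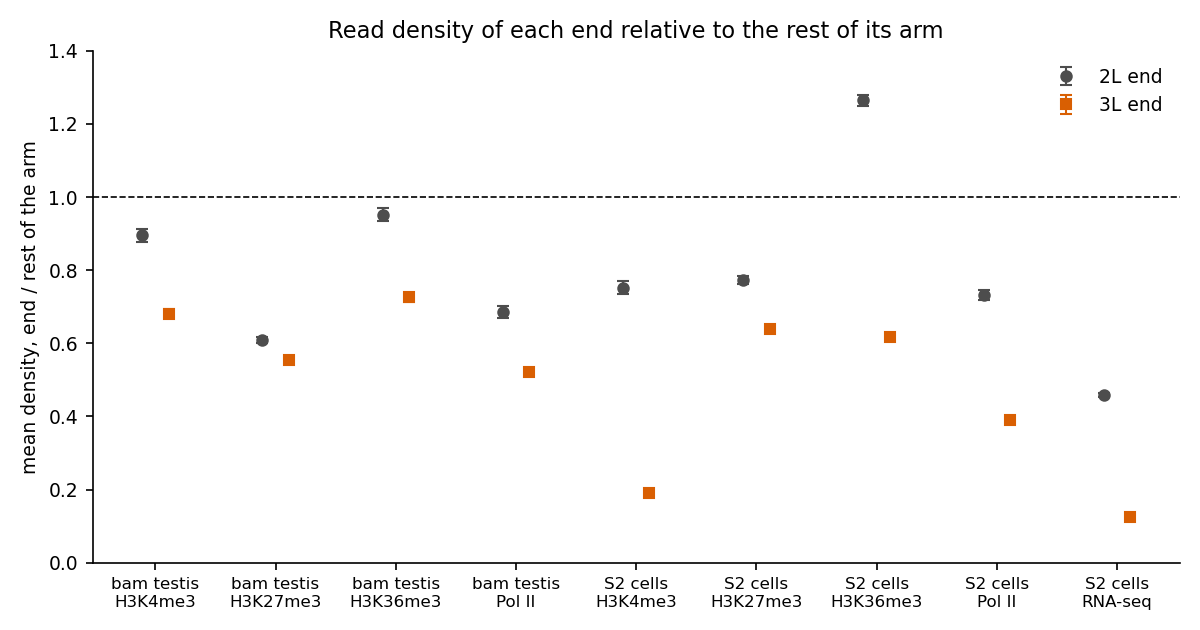
Mean read density of each end divided by that of the rest of its arm, for the 9 libraries; circles are the 2L end, squares the 3L end, and bars the 95% intervals of the counts. The 2L end lies above the 3L end in every library, and with at most 3 identical reads, as plotted, only H3K36me3 of S2 cells in the 2L end (1.26) lies above the dashed line at 1. With all copies, RNA-seq of the 2L end would be at 1.06.

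H3K36me3 of S2 cells was the only library in which the typical tile of the ends held more reads than the typical tile of the rest. Its median density was 2.65 RPM per kb in the ends and 1.33 in the rest, although the mean was lower in the ends. Tiles with ChIP-seq reads that were not past the threshold for any of the 4 targets of the sample numbered 3387 in the ends and 46237 in the rest for S2 cells. In these quiet tiles H3K36me3 of S2 cells averaged 2.75 RPM per kb in the ends and 1.67 in the rest, a ratio of 1.65 (1.62 to 1.68). The other 3 targets of S2 cells were lower in the quiet tiles of the ends, at 0.686 (0.677 to 0.695) for H3K27me3, 0.579 (0.566 to 0.593) for Pol II and 0.554 (0.526 to 0.583) for H3K4me3. In *bam* testis all 4 targets were lower in the 3326 quiet tiles of the ends than in the 50065 of the rest. Their ratios were 0.889 (0.873 to 0.905) for H3K36me3, 0.723 (0.709 to 0.737) for H3K4me3, 0.614 (0.60 to 0.628) for Pol II and 0.597 (0.589 to 0.604) for H3K27me3. H3K36me3 thus had the highest ratio of the 4 targets in quiet tiles of both samples, and a value above 1 in S2 cells only.

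The mean density of large segments fell toward the centromere in the 3L end and less regularly in the 2L end. When each end was split into 3 segments of equal tile number, S2 RNA-seq of the 3L end had 2.55 RPM per kb in the distal, 0.391 in the middle and 0.161 in the proximal segment. H3K36me3 of S2 cells had 8.0, 4.67 and 2.42 along the 3L end, and H3K4me3 of S2 cells 2.86, 1.16 and 0.920. H3K27me3 of S2 cells changed little there, with 5.69, 5.21 and 4.98. In *bam* testis the same 3L segments had 7.63, 5.22 and 4.56 of H3K4me3, 7.56, 5.72 and 4.26 of H3K36me3, 6.15, 4.05 and 3.06 of Pol II, and 5.52, 4.50 and 3.90 of H3K27me3. All 9 libraries thus fell from segment to segment in the 3L end, although not from bin to bin. In its last, partial bin of 77 tiles, H3K36me3 was at 6.77 in *bam* testis and 6.50 in S2 cells, against 1.95 in *bam* testis and 0.700 in S2 cells in the 100 kb before it. In the 2L end H3K36me3 of *bam* testis had 8.11, 6.64 and 7.41 from distal to proximal and RNA-seq had 4.59, 5.04 and 1.35. H3K36me3 of S2 cells still had 9.11 RPM per kb in the proximal segment of the 2L end, more than the mean of the rest of the arm, 8.16.

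In bins of 100 kb the ends were, in S2 cells, a series of active islands in a background with little RNA. This was not particular to the ends. In the 500 kb before them, RNA-seq was between 0.00823 and 29.4 RPM per kb in 2L and between 0.00823 and 11.5 in 3L. In the 2L end, H3K4me3 of S2 cells was between 0.840 and 17.1 RPM per kb, with a median of 4.41 over 10 full bins, and in *bam* testis between 4.19 and 11.6 with a median of 7.77. The bin chr2L:22500001-22600000 was the lowest for S2 RNA-seq, at 0.00960, and the lowest for H3K4me3 and H3K36me3 of S2 cells as well, while the bin just distal to it, chr2L:22400001-22500000, was the highest for RNA-seq, at 9.96. In the 3L end, RNA-seq was highest in chr3L:23000001-23100000, at 5.90, and had a median of 0.213 over 16 full bins. The bin chr3L:23300001-23400000 held the highest H3K36me3 of S2 cells in that end, at 13.3, with 9.71 in *bam* testis. The bin chr3L:24400001-24500000 was the lowest for every ChIP-seq library of the 3L end, and 39.0% of its tiles held no ChIP-seq read.

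**Figure D2:**
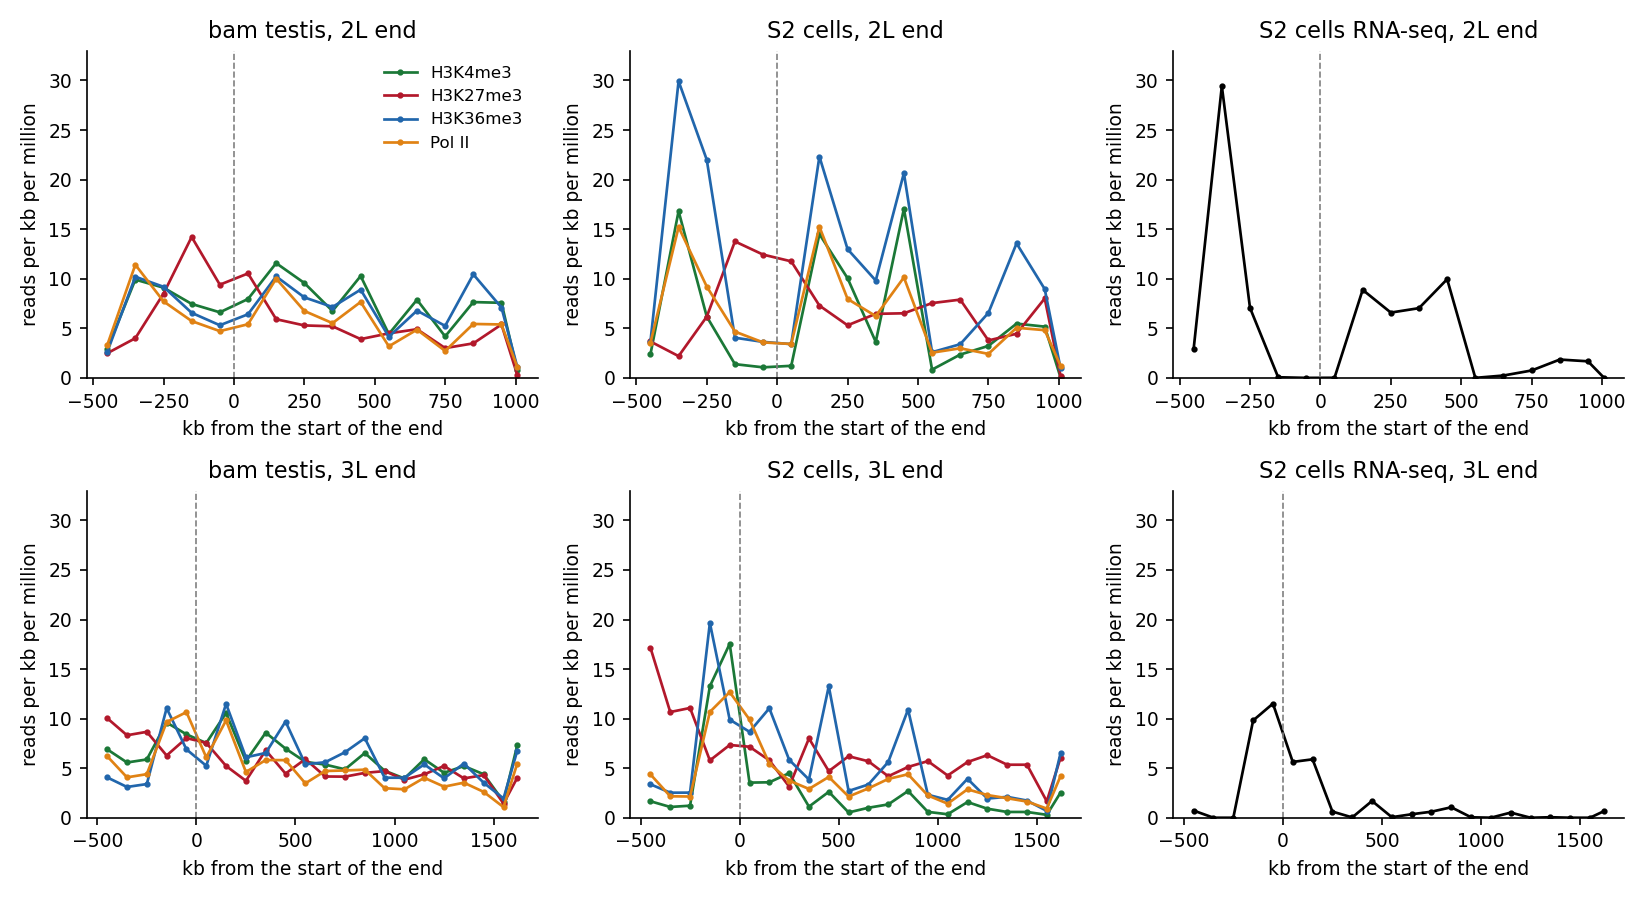
Read density in 100-kb bins (RPM per kb) against distance in kb from the start of each end (dashed line), with 500 kb of the arm before it; left *bam* testis, middle S2 cells, right RNA-seq of S2 cells, 2L above 3L. In S2 cells H3K36me3 forms separate islands along both ends (up to 22.3 RPM per kb in 2L), whereas the lines of *bam* testis stay within 11.6 RPM per kb inside the ends. Islands of S2 H3K36me3 also lie before the ends, up to 29.9 RPM per kb in 2L.

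The density changed little across the start of the 2L end and fell for several targets across that of the 3L end. In the first 100 kb inside the 2L end, H3K27me3 was at 10.5 RPM per kb in *bam* testis and 11.8 in S2 cells, and in the 100 kb before it at 9.41 in *bam* testis and 12.4 in S2 cells. RNA-seq was near 0 on both sides, with 13 reads inside and 6 outside. At the 3L start, H3K4me3 of S2 cells was at 3.55 inside and 17.6 outside, RNA-seq at 5.64 inside and 11.5 outside and Pol II of *bam* testis at 6.10 inside and 10.7 outside, while H3K27me3 of S2 cells was at 7.17 inside and 7.35 outside. Against the neighbouring segment of the same length, the 2L end was close for some targets and lower for others. The means include tiles without ChIP-seq reads. These made up 10.4% of the 2L end and 15.2% of its neighbouring segment, but 13.2% of the 3L end and 3.78% of its neighbouring segment. H3K4me3 of *bam* testis had 7.71 in the end and 7.42 in the neighbouring segment, and H3K27me3 of S2 cells had 6.83 in the end and 6.30 in the neighbouring segment. Pol II of *bam* testis had 5.65 in the end and 7.25 in the neighbouring segment, and RNA-seq 3.66 in the end and 7.66 in the neighbouring segment (8.16 and 12.3 with all copies). H3K36me3 of S2 cells was called in 16.6% of the tiles of the end and 24.2% of those of the segment. The 3L end was below its neighbouring segment in all 9 libraries, for example with 1.64 in the end and 8.56 in the segment for H3K4me3 of S2 cells, and 4.64 in the end and 9.09 in the segment for H3K27me3 of *bam* testis.

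A tile was called enriched at 14 RPM per kb or more, which took between 9 and 27 reads depending on the library. This is a fixed density, so the Poisson p it stands for in a 500-bp tile differed with the depth of the library. In *bam* testis, 530 tiles of the ends were called for H3K4me3 (10.0%, 9.22 to 10.8), against 11.6% of the rest and 11.5% of all tiles of 2L and 3L. H3K36me3 was called in 676 tiles (12.8%, 11.9 to 13.7), against 16.1% of the rest and 15.9% of all tiles. H3K27me3 was called in 291 tiles (5.49%, 4.91 to 6.14), against 13.4% of the rest and 13.0% of all tiles, and Pol II in 313 tiles (5.91%, 5.30 to 6.57), against 14.0% of the rest and 13.6% of all tiles. At this threshold the share for H3K4me3 was the closest to that of the arms. How far tiles of background reads shaped this closeness was not tested. In S2 cells H3K4me3 was called in 151 tiles (2.85%, 2.43 to 3.33), against 7.25% of the rest and 7.01% of all tiles. H3K27me3 was called in 642 tiles (12.1%, 11.3 to 13.0), against 21.8% of the rest and 21.2% of all tiles, and H3K36me3 in 578 tiles (10.9%, 10.1 to 11.8), against 15.9% of the rest and 15.6% of all tiles. Pol II was called in 287 tiles (5.41%, 4.84 to 6.06), against 12.3% of the rest and 11.9% of all tiles. RNA-seq reads at 1 RPM per kb or more were found in 468 tiles (8.83%, 8.09 to 9.62), against 24.4% of the rest and 23.5% of all tiles. The 2L end held 336 of the H3K36me3 calls of S2 cells (16.6%, 15.0 to 18.3), which is near the 15.7% of the rest of 2L, whereas the 3L end held 242 (7.39%, 6.54 to 8.33), against 16.1% of the rest of 3L. At a Poisson p under 0.001 for the depth of each library, 120 tiles of the ends were called for H3K4me3 of *bam* testis (2.26%, against 4.2% of the rest), 288 for H3K36me3 (5.43%, against 8.83%) and 117 for Pol II (2.21%, against 5.33%), so that H3K4me3 was then no longer close to the arms.

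**Figure D3:**
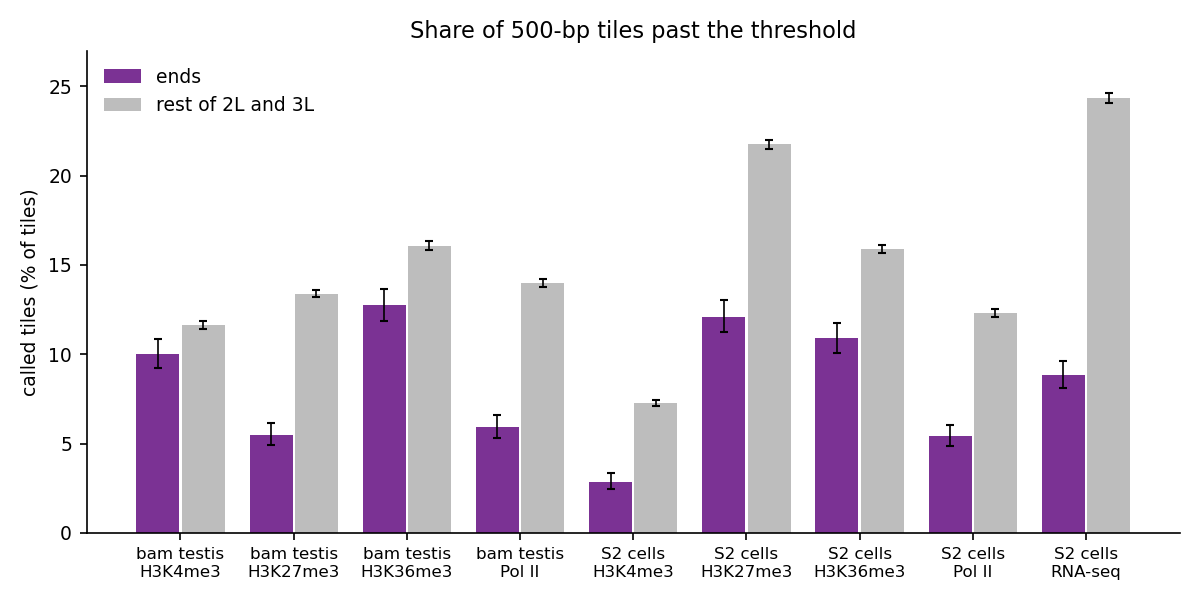
Share of 500-bp tiles called in each library, as a percentage of the tiles of the ends (left bar of each pair) and of the rest of 2L and 3L (right bar), with 95% Wilson intervals. All 9 left bars are lower, and the pair for H3K4me3 of *bam* testis (10.0% and 11.6%) is the closest.

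Levels within called tiles are bounded below by the threshold, so medians just above it say little about likeness. The median density of called tiles was 17.1 RPM per kb in the ends and 18.5 in the rest for H3K4me3 of *bam* testis, 18.8 in the ends and 21.1 in the rest for H3K36me3 and 19.4 in both for Pol II. In S2 cells it was 32.5 in the ends and 38.5 in the rest for H3K36me3, 51.2 in the ends and 72.0 in the rest for H3K4me3, 22.9 in both for Pol II and 18.7 in both for H3K27me3. H3K4me3 and H3K36me3 of S2 cells, the targets with medians well above the threshold, thus had lower medians in the called tiles of the ends. Their 90th percentiles were higher there, at 224 in the ends and 214 in the rest for H3K4me3. For H3K36me3 they were 79.0 in the ends and 69.0 in the rest. The highest tile of the ends for H3K36me3 of S2 cells, at 248 RPM per kb, was above the highest tile of the rest, at 240. RNA stood apart, with a median of 4.12 RPM per kb in tiles with RNA in the ends and 12.9 in the rest.

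Adjacent called tiles were joined into runs. The typical H3K27me3 run had the same length in the ends and in the rest, with a median of 500 bp in both samples and a 90th percentile of 1500 bp in both parts for *bam* testis and of 1500 bp in the ends and 2000 bp in the rest for S2 cells. The longest of 184 runs in the ends of *bam* testis was 4500 bp, against 36000 bp among 6941 runs in the rest, and the longest of 378 in S2 cells was 4000 bp, against 22500 bp among 9746. Runs of 2500 bp or more numbered 5 in *bam* testis and 18 in S2 cells. RNA-seq of 1 RPM per kb or more was reached by 0 of the 5 runs of *bam* testis, against 11.3% of 346 long runs in the rest, and by 2 of the 18 runs of S2 cells (11.1%), against 7.60% of 697. H3K36me3 runs were longer, up to 8500 bp for *bam* testis and 16500 bp for S2 cells. The median H3K36me3 run of S2 cells measured 1500 bp in the ends and 2500 bp in the rest. Reads of the ends were concentrated in few places, as the 3 RNA-seq runs with most reads held 26.0% of the RNA-seq reads of the ends, and the 10 runs with most reads 57.2%. The 10 leading H3K4me3 runs of S2 cells held 35.2% of the H3K4me3 reads of the ends, whereas in *bam* testis the 10 leading runs held 9.54%.

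H3K36me3 runs of 2500 bp or more were followed one by one from sample to sample. In S2 cells there were 45 such runs, 26 in the 2L end and 19 in the 3L end, which covered 217.5 kb in all. Some lie next to each other with a gap of a single tile. Over the same 45 runs, H3K36me3 of *bam* testis was at or above 14 RPM per kb in 31 (68.9%, 54.3 to 80.5), against 90.3% (88.5 to 91.8) of the 1221 long runs in the rest of the arms. The values of *bam* testis left a gap, from 3.85 to 11.7 RPM per kb in 14 runs and from 18.2 to 41.5 in the other 31. Over the 31 runs the median H3K4me3 was 21.9 RPM per kb in *bam* testis and 20.2 in S2 cells, and that of H3K27me3 was 3.31 in *bam* testis and 1.85 in S2 cells. Over the 14 runs below the threshold in *bam* testis the median H3K27me3 was 9.04 in *bam* testis and 5.60 in S2 cells, and 11 of them had RNA in S2 cells, with a median of 6.25 RPM per kb. This division was made after the values were seen and is a description. In *bam* testis there were 29 long H3K36me3 runs, of which 26 (89.7%, 73.6 to 96.4) were at or above 14 RPM per kb in S2 cells, against 97.7% (96.6 to 98.5) of the 1000 long runs in the rest. The other 3 lay within chr3L:23001501-23024000. They had 18.5, 20.1 and 18.5 RPM per kb of H3K36me3 in *bam* testis, 2.88, 5.31 and 4.38 in S2 cells, and at most 0.110 RPM per kb of RNA in S2 cells.

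**Figure D4:**
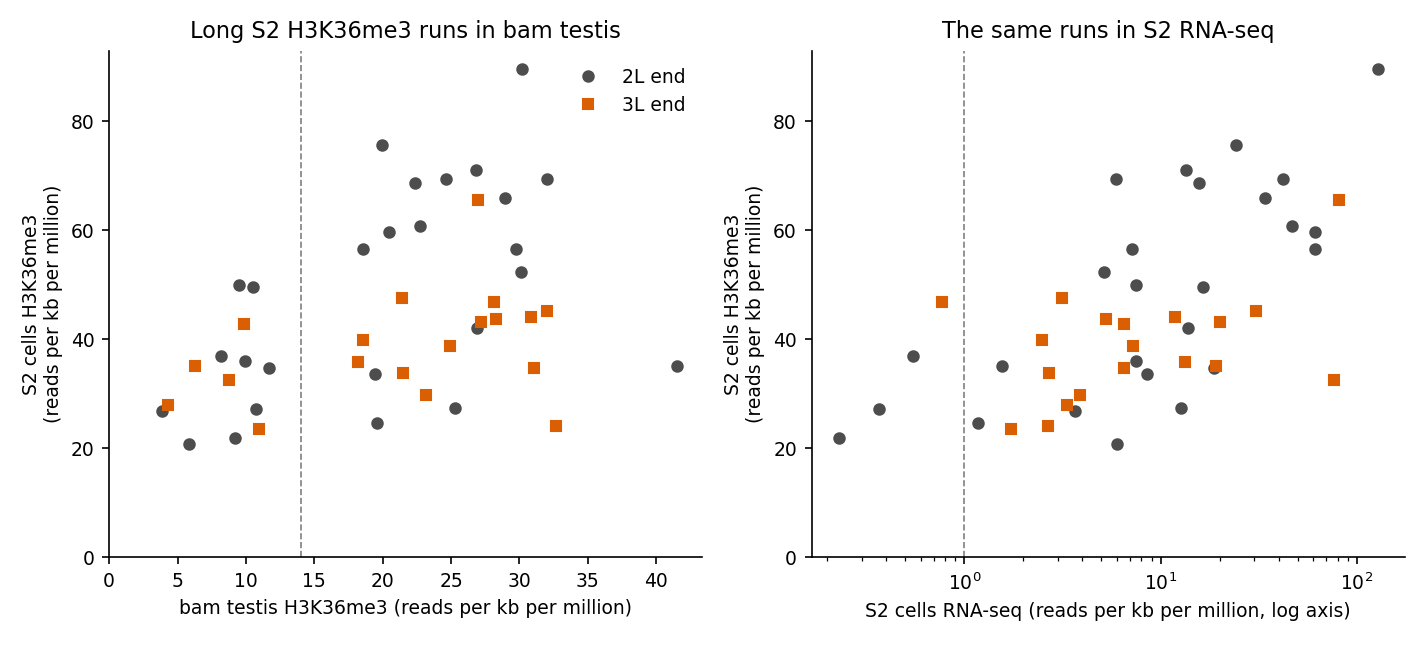
The 45 runs of S2 H3K36me3 of 2500 bp or more in the ends (circles 2L, squares 3L), by their H3K36me3 density in S2 cells on the vertical axis. On the left against H3K36me3 of *bam* testis, where 14 runs lie below the dashed threshold of 14 RPM per kb and none lies between 11.7 and 18.2, and on the right against RNA-seq on a log axis, where 41 of the 45 lie above 1 RPM per kb.

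Among the 31 runs with H3K36me3 in both samples, some lay in the proximal part of the 2L end. The run chr2L:22817501-22824000 of S2 cells had 29.8 RPM per kb of H3K36me3 and 23.2 of H3K4me3 in *bam* testis and 56.7 of H3K36me3 and 25.1 of H3K4me3 in S2 cells, with RNA-seq at 7.15. Further in, chr2L:22957501-22961000 had 29.0 of H3K36me3 and 43.5 of H3K4me3 in *bam* testis and 66.0 of H3K36me3 and 78.6 of H3K4me3 in S2 cells, with RNA-seq at 34.0. The corresponding run nearest the end of 3L, chr3L:24532001-24536000, had 23.2 of H3K36me3 in *bam* testis and 29.9 in S2 cells, but H3K4me3 of only 6.58 in *bam* testis and 0.60 in S2 cells, and RNA-seq at 3.91. Between it and chr3L:24027501-24030500, which had 18.2 of H3K36me3 in *bam* testis, 35.8 in S2 cells and 13.4 of RNA-seq, no long H3K36me3 run lay in S2 cells. Long runs were thus present within the last 100 kb of both ends, and they were spaced more widely in 3L.

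The runs with H3K36me3 past 14 RPM per kb in S2 cells and not in *bam* testis were partly grouped, with 4 of them in the stretch chr2L:22140001-22163500. All 4 carried H3K36me3 in S2 cells, with H3K27me3 beside it in some. The run chr2L:22154501-22160000 had 36 RPM per kb of H3K36me3, 3.99 of H3K27me3 and 7.48 of RNA in S2 cells. Its neighbours chr2L:22151001-22154000 and chr2L:22160501-22163500 had 21.9 and 27.2 of H3K36me3 together with 12.2 and 15.4 of H3K27me3, and only 0.229 and 0.366 of RNA. In *bam* testis these 3 runs had between 9.18 and 10.7 of H3K36me3 and between 6.39 and 9.65 of H3K27me3. The next run, chr2L:22164001-22169000, was active in both samples, with 32.0 of H3K36me3, 30.6 of H3K4me3 and 23.0 of Pol II in *bam* testis and 69.4 of H3K36me3, 38.6 of H3K4me3 and 25.8 of Pol II in S2 cells. Near the start of the 3L end, chr3L:22905001-22910500 had 6.29 of H3K36me3 and 11.1 of H3K27me3 in *bam* testis, against 35.1 of H3K36me3, 1.05 of H3K27me3 and 19.2 of RNA in S2 cells. It lies next to the H3K4me3 tiles at chr3L:22903501-22904500, where H3K4me3 was also higher in S2 cells.

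RNA-seq reads were scarcer over H3K36me3 runs of the ends than over those of the arms, with at most 3 identical reads kept. This limit removed 61.7% of the RNA-seq reads of the ends and 21.5% of those of the rest. The values below are not given for all copies. The paper isolated mRNA for this library, so the values are of mRNA and not of transcription at each tile. How far either shaped the values was not tested. Of the 45 long runs of S2 cells, 41 had 1 RPM per kb of RNA-seq or more (91.1%, 79.3 to 96.5), against 99.5% in the rest. The median RNA density over them was 7.48 RPM per kb in the ends and 32.2 in the rest, while the median H3K36me3 was 42.1 in the ends and 41.5 in the rest. Median Pol II was also alike, at 10.5 in the ends and 11.2 in the rest, and median H3K4me3 was 7.52 in the ends and 22.7 in the rest. Per tile, 56.6% (52.5 to 60.6) of the H3K36me3 tiles of S2 cells in the ends had RNA, against 90.2% (89.7 to 90.7) in the rest, with a median RNA density of 1.37 in the ends and 22.2 in the rest. Conversely, H3K36me3 tiles held 91.1% of the RNA-seq reads of the ends and 85.5% of those of the rest. Tiles with RNA made up 71.5% (63.9 to 78.1) of the H3K4me3 tiles of the ends and 89.7% of those of the rest, 66.6% (60.9 to 71.8) of the Pol II tiles of the ends and 75.3% of those of the rest, and 7.01% (5.28 to 9.25) of the H3K27me3 tiles of the ends and 6.00% of those of the rest. Among tiles of S2 cells called for none of the 4 targets, 1.42% (1.09 to 1.83) had RNA in the ends and 7.62% (7.39 to 7.86) in the rest.

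The strongest active locus of the 2L end was chr2L:22425001-22432000, a run of Pol II in *bam* testis that was active in both samples. It had 64.3 RPM per kb of H3K4me3, 43.4 of Pol II, 25.8 of H3K36me3 and 4.06 of H3K27me3 in *bam* testis. In S2 cells it had 135 of H3K4me3, 58.7 of Pol II, 88.7 of H3K36me3, 4.73 of H3K27me3 and 103 of RNA-seq. Within it H3K4me3 formed separate peaks at the same tiles in both samples, the higher one at 223 RPM per kb in *bam* testis and 613 in S2 cells and the other at 156 in *bam* testis and 534 in S2 cells. The limit of 3 copies compressed the RNA value of this locus. In the tile chr2L:22428501-22429000, 2498 of 24655 reads were kept (10.1%), and a tile can keep at most 3000. In all, 66.5% of the RNA-seq reads of the 2L end and 44.1% of those of the 3L end were removed as further copies, against 21.5% in the rest of the arms.

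In the 3L end the matching locus was chr3L:23083501-23089500, again the leading Pol II run of *bam* testis. It had 42.2 RPM per kb of H3K4me3, 48.2 of Pol II, 24.0 of H3K36me3 and 4.87 of H3K27me3 in *bam* testis, and 23.9 of H3K4me3, 32.6 of Pol II, 55.9 of H3K36me3, 1.08 of H3K27me3 and 68.3 of RNA-seq in S2 cells. Unlike the locus in 2L, it had higher H3K4me3 and Pol II densities in *bam* testis than in S2 cells. Its neighbour chr3L:23094501-23097000 was among the 3 RNA-seq runs of the 3L end with most reads, at 59.9, and had 33.8 of H3K36me3 in *bam* testis and 63.0 in S2 cells.

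**Figure D5:**
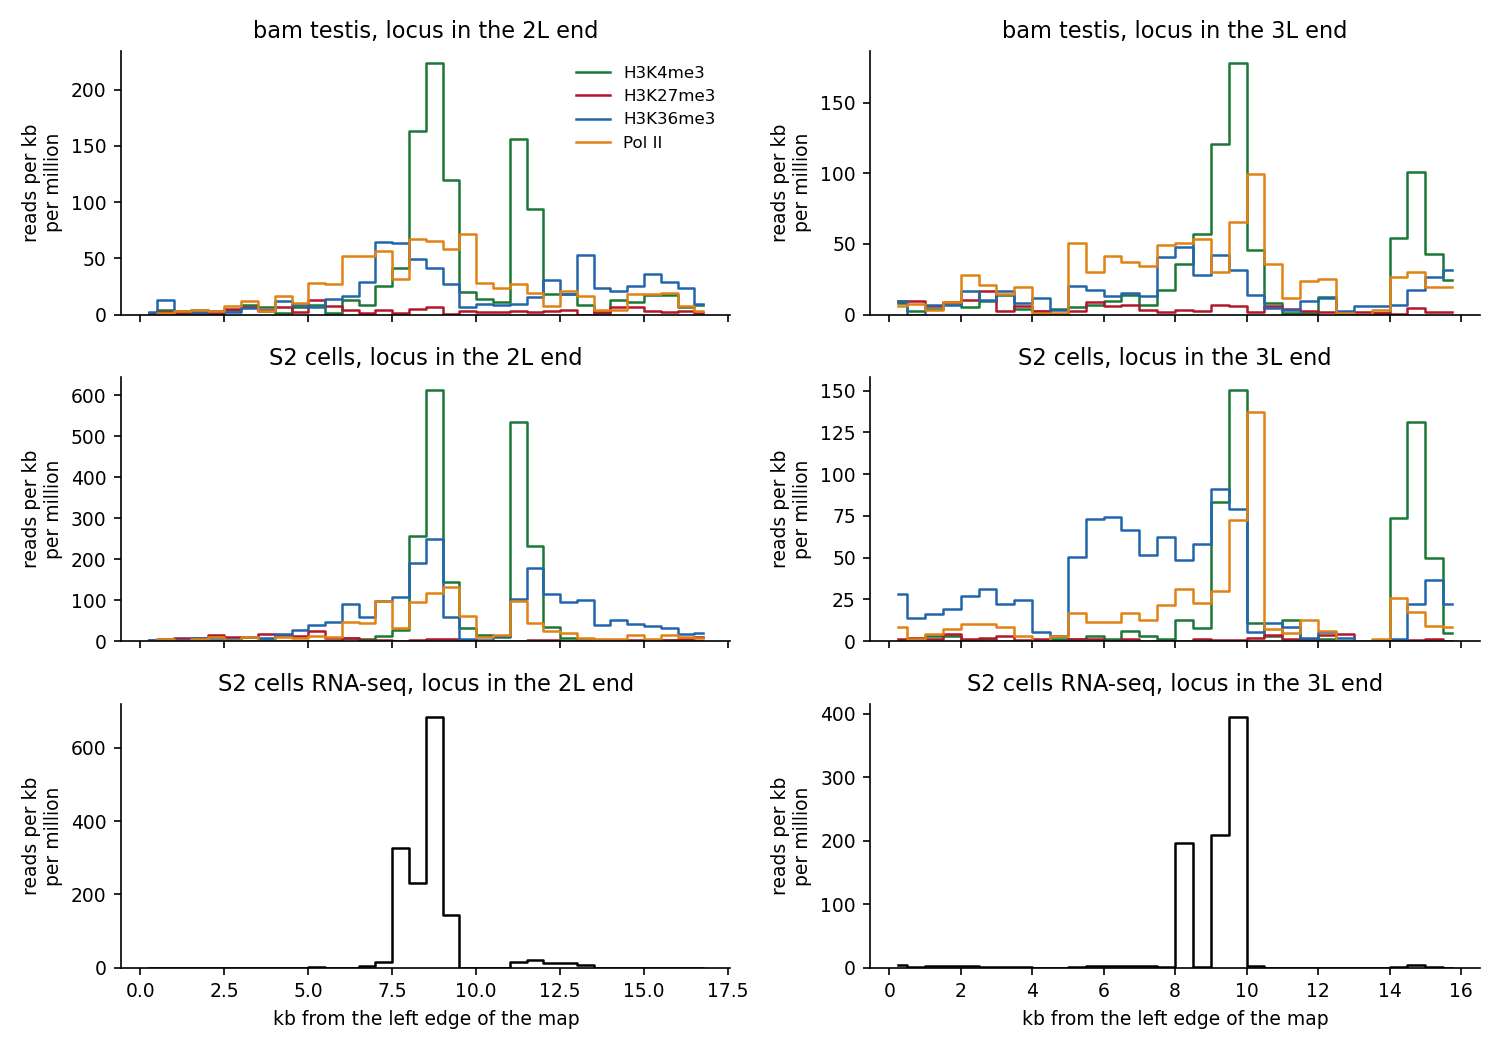
Density in 500-bp tiles (RPM per kb, each panel with its own scale) over 17 kb around the leading locus of the 2L end (left column) and 16 kb around that of the 3L end (right column), with 5 kb on either side of the run, against distance in kb from the left edge; rows are *bam* testis, S2 cells and S2 RNA-seq. H3K4me3 (green) forms sharp peaks at the same tiles in both samples, up to 223 RPM per kb in *bam* testis and 613 in S2 cells for 2L, and H3K27me3 (red) stays low at these peaks.

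Other loci carried long bodies of H3K36me3, with H3K4me3 below the threshold in some of them. The longest H3K36me3 run of S2 cells in the ends, chr3L:23732001-23748500, had 18.6 RPM per kb of H3K36me3 in *bam* testis and 39.9 in S2 cells, with H3K4me3 at 8.49 in *bam* testis and 1.99 in S2 cells and RNA-seq at 2.49. The longest run of *bam* testis in the 3L end, chr3L:23316001-23324500, had 27.2 of H3K36me3 in *bam* testis and 41.1 in S2 cells, H3K4me3 at 10.4 in *bam* testis and 0.941 in S2 cells, and 9.36 of RNA-seq. In the 2L end, chr2L:22250001-22258500 had 27.4 of H3K36me3 in *bam* testis and 40.5 in S2 cells, with H3K4me3 at 18.1 in *bam* testis and 17.8 in S2 cells and RNA-seq at 16.0. The H3K36me3 run with most reads above the threshold in *bam* testis, chr2L:22884501-22887500, had 58.2 RPM per kb there and 43.2 in S2 cells, with H3K4me3 at 14.7 in *bam* testis and 1.60 in S2 cells and RNA-seq at 2.61. Of these 4 runs it was the only one with more H3K36me3 in *bam* testis than in S2 cells.

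Between the samples, a tile was counted as higher where it was called and was at least 4 times as dense as in the other sample. A count under 3 reads in the other sample was set to 3. The density needed thus depended on the depth of that library and on the copies kept. Counts of different targets and directions therefore did not rest on the same bar. H3K36me3 differed in more tiles than any other target, with 237 tiles of the ends higher in *bam* testis (4.47%, 3.95 to 5.06), against 3.43% of the rest and 3.48% of all tiles, and 148 higher in S2 cells (2.79%, 2.38 to 3.27), against 2.47% of the rest and 2.49% of all tiles. H3K4me3 was higher in *bam* testis in 90 tiles (1.70%, 1.38 to 2.08), against 0.967% of the rest and 1.01% of all tiles, and higher in S2 cells in 46 (0.868%, 0.651 to 1.16), against 2.95% of the rest and 2.83% of all tiles. With 1 copy of each read, however, H3K4me3 was higher in *bam* testis in 13 tiles and in S2 cells in 48. Which direction prevailed in the ends thus changed with this setting, and the part of the floor of 3 reads in the change was not tested. H3K27me3 was higher in *bam* testis in 12 tiles (0.226%, 0.130 to 0.395), against 0.896% of the rest and 0.859% of all tiles, and higher in S2 cells in 54 (1.02%, 0.782 to 1.33), against 0.711% of the rest and 0.728% of all tiles. Pol II was higher in 62 tiles in either direction (1.17%, 0.914 to 1.5). In the rest, 1.82% of tiles were higher in *bam* testis (1.78% of all tiles) and 1.36% in S2 cells (1.34% of all tiles). With 1 copy of each read, 144 tiles had higher H3K36me3 in *bam* testis.

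For H3K4me3, H3K36me3 and Pol II, the shared calls made up a smaller share of the calls in the ends than in the rest. These shares are bounded by unequal numbers of calls. For H3K4me3, *bam* testis had 530 calls and S2 cells 151 in the ends, against 10450 and 6513 in the rest. At most 151 of the 530 could thus be shared. For H3K4me3, 89 tiles were called in both, which is 16.8% (13.9 to 20.2) of those called in *bam* testis and 58.9% (51.0 to 66.5) of those called in S2 cells, against 41.3% and 66.3% in the rest. For H3K36me3, 321 tiles were shared, 47.5% (43.8 to 51.3) of those of *bam* testis and 55.5% (51.5 to 59.5) of those of S2 cells, against 69.7% and 70.6% in the rest. Pol II shared 126 tiles, 40.3% (35.0 to 45.8) of those of *bam* testis and 43.9% (38.3 to 49.7) of those of S2 cells, against 49.8% and 56.7%. H3K27me3 was different, with 199 shared tiles that made up 68.4% (62.8 to 73.5) of those of *bam* testis, against 65.7% in the rest, and 31.0% (27.5 to 34.7) of those of S2 cells, against 40.5% in the rest.

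The largest differences lay at single loci. In the 3L end, the longest H3K4me3 run of *bam* testis, chr3L:23546501-23551000, had 22.6 RPM per kb of H3K4me3 and 15.6 of Pol II in *bam* testis, against 1.60 and 3.81 in S2 cells. At chr3L:23001501-23007000, H3K36me3 was at 18.3 in *bam* testis and 2.29 in S2 cells. In the 2L end, chr2L:22214501-22215500 had 24.2 of H3K4me3 in *bam* testis and 1.60 in S2 cells. No RNA-seq read of S2 cells fell in that last run. In the opposite direction, chr2L:22352501-22355500 had 12.8 of H3K4me3 and 13.7 of Pol II in *bam* testis and 87.2 of H3K4me3 and 77.9 of Pol II in S2 cells. It lies in the 12-kb RNA-seq run chr2L:22352501-22364500, with a density of 28.0 RPM per kb. At chr3L:22903501-22904500, H3K4me3 was at 8.53 in *bam* testis and 122 in S2 cells, Pol II at 5.96 in *bam* testis and 33.8 in S2 cells, and H3K27me3 at 12.6 in *bam* testis and 1.44 in S2 cells. At chr3L:22938001-22948000, the longest Pol II run of S2 cells in the ends, Pol II was at 9.39 in *bam* testis and 53.8 in S2 cells, H3K27me3 at 8.39 in *bam* testis and 1.44 in S2 cells, and RNA-seq at 40.3. Both of these 3L loci thus had more H3K27me3 and less Pol II in *bam* testis than in S2 cells. Their H3K27me3 in *bam* testis was nevertheless below the threshold of 14 RPM per kb. The value of 8.39 was near the mean of the rest of both arms, 8.42.

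The leading H3K27me3 locus of *bam* testis was chr2L:22019501-22024000, close to the start of the 2L end, with 29.9 RPM per kb in *bam* testis and 18.2 in S2 cells and RNA-seq at 0.0305. In the 3L end it was chr3L:22921001-22923000, with 23.6 in *bam* testis and 35.8 in S2 cells. The leading locus of S2 cells in the 2L end, chr2L:22483501-22485500, had 14.2 of H3K27me3 in *bam* testis and 43.2 in S2 cells. H3K36me3 of S2 cells was at 20.1 there, and no RNA-seq read was found. At chr2L:22472501-22474000, distal to it, H3K36me3 was at 18.4 in *bam* testis and 118 in S2 cells.

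Marks that seldom met in the arms met in a larger share of tiles in the ends of S2 cells. H3K27me3 and H3K36me3 were both called in 59 tiles (1.11%), against 0.379% of the rest and 0.420% of all tiles. Their number was 0.843 times the product of the shares of both marks in the ends, against 0.110 times in the rest. Of the 59 tiles, 51 lay among the 2024 tiles of the 2L end and 8 among the 3277 of the 3L end. By itself, the 3L end was below the share of the rest. Of the 59, 27 were also called for Pol II, 21 had RNA and 9 were called for H3K36me3 in *bam* testis. H3K4me3 and H3K27me3 met in 11 tiles of S2 cells (0.208%), against 0.0579% of the rest and 0.0662% of all tiles, 0.602 times the product in the ends and 0.0367 times in the rest. Of these 11, 8 were called for all 4 targets, and 3 remained without them. In *bam* testis, H3K4me3 and H3K27me3 met in 28 tiles (0.528%), against 0.648% of the rest and 0.641% of all tiles, 0.962 times the product in the ends and 0.416 times in the rest. H3K27me3 and H3K36me3 met in 12 tiles of *bam* testis (0.226%), against 0.796% of the rest and 0.764% of all tiles, 0.323 times the product in the ends and 0.369 times in the rest. At a Poisson p under 0.001, tiles with both H3K4me3 and H3K27me3 numbered 2 in *bam* testis and 3 in S2 cells.

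Marks of active genes met in a smaller share of tiles than in the rest of the arms. H3K36me3 and Pol II were both called in 158 tiles of *bam* testis (2.98%), against 5.51% of the rest and 5.37% of all tiles, and in 182 tiles of S2 cells (3.43%), against 4.98% of the rest and 4.89% of all tiles. These numbers were 3.96 times the product of the shares in the ends of *bam* testis, against 2.45 in the rest, and 5.82 times in the ends of S2 cells, against 2.55 in the rest. H3K4me3 tiles of S2 cells in the ends were called for Pol II in 79.5% and for H3K36me3 in 56.3%, against 72.2% and 52.2% in the rest. None of the 4 targets was called in 74.8% of the tiles of the ends in *bam* testis, against 59.3% of the rest, and in 76.0% in S2 cells, against 55.0% of the rest.

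Tiles called for all 4 targets of a sample numbered 2 in *bam* testis (0.0377%, 0.0104 to 0.138), against 0.0290% of the rest, and 8 in S2 cells (0.151%, 0.0765 to 0.298), against 0.0100% of the rest. The 2 of *bam* testis were chr2L:22391001-22391500 and chr3L:23110001-23110500. Of the 8 in S2 cells, 7 lay in 2L, among them chr2L:22180501-22181500 inside the longest Pol II run of S2 cells in that end, and 1 in 3L. The tile chr2L:22415001-22415500 had 74.8 RPM per kb of H3K27me3, 33.3 of Pol II, 22.4 of H3K4me3 and 18.6 of H3K36me3 in S2 cells. In *bam* testis it had 1.07 of H3K27me3, 4.69 of H3K36me3 and no read of Pol II or H3K4me3. At chr3L:23565001-23565500, H3K27me3 was at 6.44 in *bam* testis and 80.6 in S2 cells, and Pol II at 5.96 in *bam* testis and 83.1 in S2 cells. No RNA-seq read of S2 cells fell in either tile. The part of DNA copy number in these tiles was not tested. No tile of the ends was called for all 4 targets in both samples, 0 of 5301, which allows a share of up to 0.0566% if 3 tiles are taken as the limit of a count of 0. The rest of the arms held no such tile either, 0 of 89800, so this count does not set the ends apart.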

How the data were processed

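Alignment of the ChIP-seq reads was done by the authors with ELAND against dm3, with at most 2 mismatches, and only reads with a single place in the genome stayed in. The deposited files give the position, strand and mismatch class of each read, without normalization. The deposited RNA-seq file also holds an alignment score, which was not used; the paper describes alignment once, for 25-bp reads, and does not say separately how the 36-bp RNA-seq reads were aligned. At most 3 identical reads were kept, 5′ ends of ChIP-seq reads were shifted 80 bp inward, and reads were counted in 500-bp tiles. Tiles were called at 14 RPM per kb, a threshold from the Poisson distribution (p under 0.05 for 1 kb, 1000000 reads and 120 Mb). In a 500-bp tile at the depth of a library, this density stands for a p that differs between libraries and can exceed 0.05. For differences between samples, counts under 3 reads were set to 3. Ratios have exact conditional binomial intervals, shares Wilson intervals, all at 95%. Intervals cover counting error only, since PCR copies cannot be told from separate molecules, and tiles are not replicates, so no test was made. Ratios, runs and tile differences were checked on simulated data.

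The regions named were, for each end and ChIP-seq library, the runs with most reads above the threshold and the longest runs, the 3 RNA-seq runs with most reads, the runs that differed most between samples in each direction, and tiles called for all 4 targets. Further H3K36me3 runs of 2500 bp or more were named after their values were seen. Tiles, lists and rules were chosen with earlier results of these data known. Alternatives were no shift, 1 copy, only tiles with ChIP-seq reads, omission of tiles called for all 4 targets, thinning, a stricter threshold, other RNA minimums and 2 times in place of 4 times. Reads without a mismatch and, for RNA-seq, all copies were added after the data were seen. Python 3.11.15, numpy 2.4.6, pandas 2.3.3, scipy 1.17.1 and matplotlib 3.10.9 were used.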

Additional observations from a re-analysis of the deposited data

Results flagged for a closer look

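The 2L end lay on opposite sides of the rest of its arm for H3K36me3, with a ratio of 0.952 in *bam* testis and 1.264 in S2 cells, each from 1 library. This held over all tiles only. Among tiles with ChIP-seq reads the ratios were 1.02 in *bam* testis and 1.355 in S2 cells, both above 1. Whether the samples differ was not tested.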

How the results depend on the processing

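Without the shift all 8 ChIP ratios stayed within their intervals, and with libraries thinned to 1250028 reads all 8 counts of called tiles stayed within 1.5 times. With only tiles that held ChIP-seq reads, the ratios of H3K4me3, H3K27me3, H3K36me3 and Pol II were 0.837, 0.631, 0.893 and 0.642 in *bam* testis and 0.442, 0.755, 0.949 and 0.572 in S2 cells, and that of RNA-seq was 0.274. With only reads without a mismatch, they were 0.842, 0.645, 1.01 and 0.636 in *bam* testis and 0.420, 0.722, 0.937 and 0.563 in S2 cells, so that H3K36me3 of *bam* testis, with an interval of 0.982 to 1.04, was no longer below 1. With 1 copy of each read, H3K36me3 of *bam* testis was at 0.796, and S2 cells had 0.419 for H3K4me3, 0.672 for H3K27me3, 0.876 for H3K36me3, 0.532 for Pol II and 0.234 for RNA-seq. RNA-seq with all copies was at 0.511, and at 1.06 in the 2L end alone. Without the tiles called for all 4 targets, H3K27me3 of S2 cells was at 0.681, and 3 tiles of S2 cells carried H3K4me3 and H3K27me3.

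At a Poisson p under 0.001, called tiles numbered 120 for H3K4me3, 288 for H3K36me3 and 117 for Pol II in *bam* testis, and 414 for H3K27me3 and 179 for Pol II in S2 cells. Tiles with H3K4me3 and H3K27me3 then numbered 2 in *bam* testis and 3 in S2 cells, those with H3K27me3 and H3K36me3 numbered 5 in *bam* testis, and those with H3K36me3 and Pol II numbered 38 in *bam* testis and 100 in S2 cells. Tiles with RNA numbered 754 at a minimum of 0.5 and 214 at a minimum of 5 RPM per kb. At a difference of at least 2 times, H3K4me3 was higher in *bam* testis in 429 tiles and in S2 cells in 93, H3K27me3 in 38 and 266, Pol II in 157 and 149, and H3K36me3 was higher in S2 cells in 348. With 1 copy, H3K4me3 was higher in *bam* testis in 13 tiles and in S2 cells in 48, which turned the order of both directions, and 144 tiles had higher H3K36me3 in *bam* testis. The cause of these changes was not tested, apart from the fewer or more reads and tiles that each alternative admits.

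The main limits are the single library for each target and sample, the tiles that unique reads do not reach, the absence of an input or H3 library from this work, and the depth, at which a called tile can rest on 9 reads. No paired analysis was possible because each group had 1 library, and for the same reason leaving out a replicate was not done.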
